A study of Arabidopsis thaliana with 6 samples.

Results

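Jasmonate is made from linolenic acid, and 6 probe sets for genes of that route were followed here in rosettes of an APK1/APK2 double mutant. APK1 and APK2 are genes of APS kinases. The probe sets were 252618_at for LOX2, 261037_at for LOX3, 260399_at for LOX4, 249208_at for AOS, 257644_at for AOC3 and 265530_at for OPR3, which are 6 of the 22810 on the array. They were chosen by name as enzymes of successive steps, and the gene names are those given with that choice. Earlier results of these data were known when they were chosen, so counts set beside all probe sets are descriptive. The probe table used here lists 0 of the 6, so the pairing of probe set and gene was not checked. In the gene table the names belong to AT3G45140 (LOX2), AT1G17420 (LOX3), AT1G72520 (LOX4), AT5G42650 (AOS), AT3G25780 (AOC3) and AT2G06050 (OPR3).

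The arrays were Affymetrix ATH1, a 1-colour oligonucleotide array of Arabidopsis thaliana on which a gene is read by 1 or more sets of short probes. Of 6 arrays, 3 carried RNA of the double mutant, labelled double mutant APK1/APK2 and made by crossing salk_053427 with salk_093072, and 3 carried RNA of Col-0, the wild type. All plants were 35 days old and received no treatment apart from 3 days of seed cold at 4 °C. The lights were on for 10 h and off for 14 h, at 22 °C and 60% humidity, and whole rosettes were cut 4 h after lights on. For a sample 10 rosettes were combined, so plants within it were not measured singly, and the mutant is a single cross of 2 insertion lines that carries the mutations in every tissue. The probe table names no probe set for APK1 or APK2, so the loss of the targeted transcripts was not checked here.

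In the plastid, 13-lipoxygenases such as LOX2, LOX3 and LOX4 oxygenate linolenic acid, allene oxide synthase (AOS) turns the hydroperoxide into an allene oxide, and allene oxide cyclases such as AOC3 close its ring to give OPDA. OPDA moves to the peroxisome, where OPR3 reduces it before beta-oxidation shortens the chain to jasmonate. In leaves jasmonate is known for wound and insect responses, and its receptor pathway raises transcripts of its own biosynthesis genes. APS kinase makes PAPS, the sulfate donor of sulfotransferases, among them the enzyme that sulfates hydroxyjasmonate, which links APS kinases to jasmonate turnover. The question put to these genes was at which steps, if any, their transcripts differ between the double mutant and the wild type.

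Transcripts of 2 of the 6 genes, LOX4 and OPR3, rose in the double mutant, 2.05-fold and 1.72-fold. LOX2 and AOS, which serve the lipoxygenase and allene oxide synthase steps, had fitted folds near 1. AOC3 was higher on each mutant array than on each wild-type array but did not pass the test, and LOX3 spread widely among the mutant arrays. The test was limma's moderated test over 13848 probe sets with Benjamini-Hochberg adjustment and a threshold of 0.05. Over all tested probe sets 11.3% were called, 5.79% higher in the mutant and 5.55% lower, against 2 of the 6 called higher and 0 called lower. The median log2 change was 0.56 over the 6 and -0.02 over all tested probe sets. When the variance prior did not follow the signal level, neither LOX4 (adjusted p = 0.0623) nor OPR3 (adjusted p = 0.0862) passed.

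**Figure D1:**
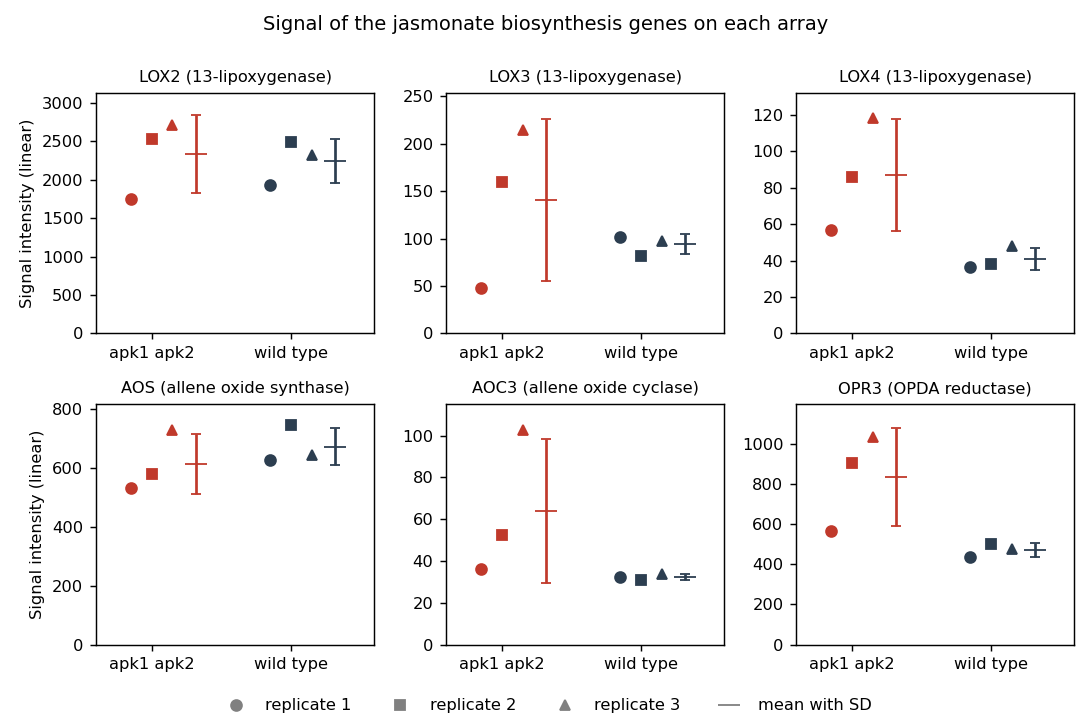
Linear signal intensity of each gene on each of the 6 arrays, in the double mutant (left, red) and the wild type (right, blue); bars show the mean and SD of 3 arrays. All 3 mutant arrays lie above all wild-type arrays for LOX4, AOC3 and OPR3, and the genotypes overlap for LOX2, LOX3 and AOS.

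At the lipoxygenase step LOX4 was called higher, and LOX2 and LOX3 were not called. A call for LOX4 alone does not show that the 3 genes differed from each other. LOX2, the lipoxygenase that supplies most of the rapid jasmonate of wounded leaves, had signals of 1751, 2535 and 2711 on mutant arrays 1, 2 and 3, against 1932, 2489 and 2324 on wild-type arrays 1, 2 and 3. The lowest and the highest of the 6 values were both mutant arrays, so the genotypes overlapped. Its mean was 2332 ± 511 in the mutant and 2249 ± 286 in the wild type (SD, n = 3 each). The fitted fold was 1.02 with a 95% interval of 0.827 to 1.27 (limma, adjusted p = 0.917).

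LOX3 and LOX4 are related 13-lipoxygenases known for roles in flower fertility and in vascular tissue. LOX4 had signals of 56.9, 85.9 and 118 in the mutant, against 36.7, 38.0 and 48.1 in the wild type. Every mutant array lay above every wild-type array. LOX4 averaged 87.0 ± 30.6 in the mutant and 40.9 ± 6.24 in the wild type (SD, n = 3 each), a log2 change of 1.04 with a standard error of 0.22 (fold 2.05, 95% interval 1.47 to 2.87, limma, adjusted p = 0.00872). Leaving out any 1 array kept the rise past the threshold, with log2 changes of 0.79 to 1.31 and adjusted p-values of 6.25e-04 to 0.0424. With an offset of 16 added to the signals, the log2 change was 0.82 for LOX4 and 0.76 for OPR3.

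LOX3 had signals of 47.6, 160 and 215 in the mutant, against 102, 81.8 and 97.9 in the wild type. One mutant array, replicate 1, was below all wild-type arrays and the other 2 were above them. The mean was 141 ± 85.2 in the mutant and 93.8 ± 10.5 in the wild type (SD, n = 3 each), and the fitted fold of 1.26 had a 95% interval of 0.705 to 2.26 (limma, adjusted p = 0.669). The log2 change of 0.34 depended on each mutant array. Without mutant replicate 1 it was 0.99 and passed (limma, adjusted p = 9.51e-04), without mutant replicate 2 it was 0.11 (limma, adjusted p = 0.920), and without mutant replicate 3 it was -0.10 (limma, adjusted p = 0.920).

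AOS, the allene oxide synthase and a cytochrome P450 encoded by a single gene in Arabidopsis, had signals of 533, 578 and 729 in the mutant, against 628, 744 and 645 in the wild type. Of the mutant arrays, 2 were below all wild-type arrays, and the third lay within their range. AOS averaged 613 ± 103 in the mutant and 672 ± 62.7 in the wild type (SD, n = 3 each). The fitted fold was 0.906 with a 95% interval of 0.765 to 1.07 (limma, adjusted p = 0.506), so a rise as large as the fitted one of LOX4 or OPR3 lay outside the interval.

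AOC3, an allene oxide cyclase of the plastid, had signals of 36.4, 52.5 and 103 in the mutant, against 32.2, 30.9 and 33.5 in the wild type. The groups did not overlap, but mutant replicate 1 lay just above the wild-type arrays and mutant replicate 3 far above them. AOC3 averaged 63.9 ± 34.7 in the mutant and 32.2 ± 1.32 in the wild type (SD, n = 3 each). The fitted fold was 1.80 with an unadjusted 95% interval of 1.17 to 2.78, and it did not pass the test (limma, adjusted p = 0.0797). With a replicate block AOC3 passed (limma, adjusted p = 0.0401), but the replicate numbers were not taken as pairs. Without mutant replicate 1 the log2 change was 1.19 and passed (limma, adjusted p = 0.00746), and without mutant replicate 3 it was 0.44 (limma, adjusted p = 0.295). In the gene table AOC3 is the direct neighbour of AOC2, with AOC1 next to that. These are close relatives, and whether the AOC3 probe set also reads them was not tested.

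OPR3, the OPDA reductase of the peroxisome, had signals of 564, 905 and 1033 in the mutant, against 435, 500 and 478 in the wild type. Every mutant array lay above every wild-type array. OPR3 averaged 834 ± 242 in the mutant and 471 ± 32.8 in the wild type (SD, n = 3 each), a log2 change of 0.78 with a standard error of 0.17 (fold 1.72, 95% interval 1.34 to 2.21, limma, adjusted p = 0.00848). Its rise also stayed past the threshold without any 1 array, with log2 changes of 0.60 to 1.04 and adjusted p-values of 2.04e-05 to 0.0419. In whole rosettes, a change in the number of cells that express a gene and a change in transcript per cell cannot be told apart.

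The genotypes did not overlap for 3 of the 6 genes, LOX4, AOC3 and OPR3, where 28.7% of all tested probe sets did not overlap in either direction and 13% were higher on every mutant array than on every wild-type array.

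**Figure D2:**
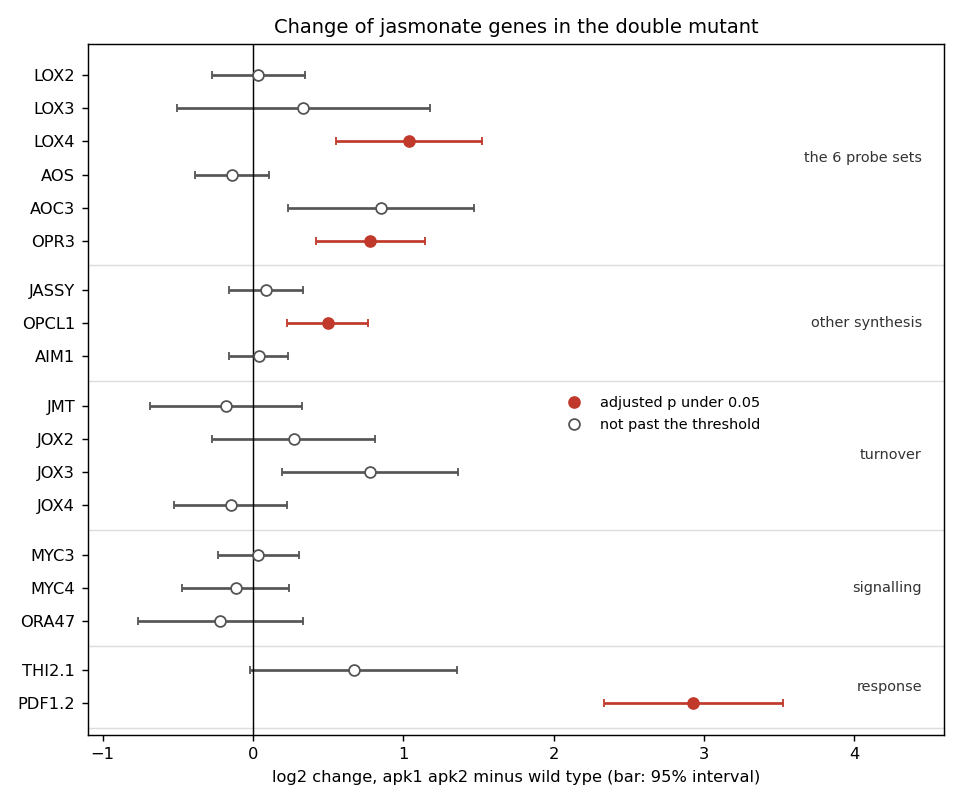
Fitted log2 change, double mutant minus wild type, of the 6 probe sets and of the 12 other tested jasmonate genes, with 95% intervals from the limma fit (3 arrays per genotype). LOX4, OPR3, OPCL1 and PDF1.2 (filled, red) passed an adjusted p of 0.05, and the intervals of LOX2, LOX3 and AOS cross 0.

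To ask whether steps of the route changed unequally, the log2 ratio of each of the 15 pairs of genes was taken within each array and compared between genotypes. The genotypes did not overlap in 7 pairs. The pairs share genes, so these are not 7 separate differences, and the share over pairs of other probe sets was not computed. OPR3 changed by 0.92 more than AOS on the log2 scale, LOX4 by 1.18 more than AOS and AOC3 by 0.99 more than AOS. Against LOX2, the change was larger by 1.00 for LOX4, by 0.82 for AOC3 and by 0.75 for OPR3. The 7th pair was LOX4 against LOX3, with a difference of 0.70. No pair among LOX4, AOC3 and OPR3, and not the pair of LOX2 and AOS, was among the 7. For each of the 7 the exact two-sided permutation p was 0.1, the smallest that 3 arrays against 3 can give, and 0.214 after Benjamini-Hochberg adjustment over the 15 pairs, so none passed.

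The mutant arrays differed from each other more than the wild-type arrays did for all 6 genes. The share of all tested probe sets with a wider mutant than wild-type range was not computed. The highest mutant signal was 4.51 times the lowest for LOX3, 2.83 times for AOC3, 2.08 times for LOX4, 1.83 times for OPR3, 1.55 times for LOX2 and 1.37 times for AOS. Among wild-type arrays the same ratio lay between 1.09 for AOC3 and 1.31 for LOX4. For LOX3, 0.318% of all tested probe sets had a mutant range as large, and for AOC3 0.852%, whereas 40.5% and 84.2% had a wild-type range as large. The share with a mutant range as large was 3.07% for LOX4, 5.75% for OPR3, 13.4% for LOX2 and 26.8% for AOS. Over all tested probe sets the median range, as log2 of highest over lowest, was 0.30 among mutant arrays and 0.26 among wild-type arrays.

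Mutant replicate 1 had the lowest and mutant replicate 3 the highest mutant signal for each of the 6 genes, an arrangement found in 14.2% of all tested probe sets. Relative to the geometric mean of the wild type, mutant replicate 1 was at 0.510 for LOX3, 0.783 for LOX2, 0.795 for AOS, 1.13 for AOC3, 1.20 for OPR3 and 1.40 for LOX4. On mutant replicate 3 the same ratio was 1.09 for AOS, 1.21 for LOX2, 2.20 for OPR3, 2.30 for LOX3, 2.91 for LOX4 and 3.19 for AOC3. LOX2, LOX3 and AOS were each below the wild-type mean on mutant replicate 1 and above it on mutant replicate 3. With mutant replicate 1 left out, 4 of the 6 genes (LOX3, LOX4, AOC3 and OPR3) were called higher. In that fit 5.71% of all tested probe sets were called higher. That array was the lowest mutant array for each of the 6, so leaving it out raised each fitted change by construction. The share over all probe sets is therefore not a like background. Without mutant replicate 2, 2 of the 6 were called higher, where 668 of all 13848 tested probe sets were. Without mutant replicate 3 also 2 were called higher, where 526 of all tested probe sets were. Replicate 3 was the highest mutant array for each of the 6, so the count over all probe sets is not a like background there either. The median signal of mutant replicate 2 was 34.5, and those of the other 5 arrays lay between 32.5 and 33.2.

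**Figure D3:**
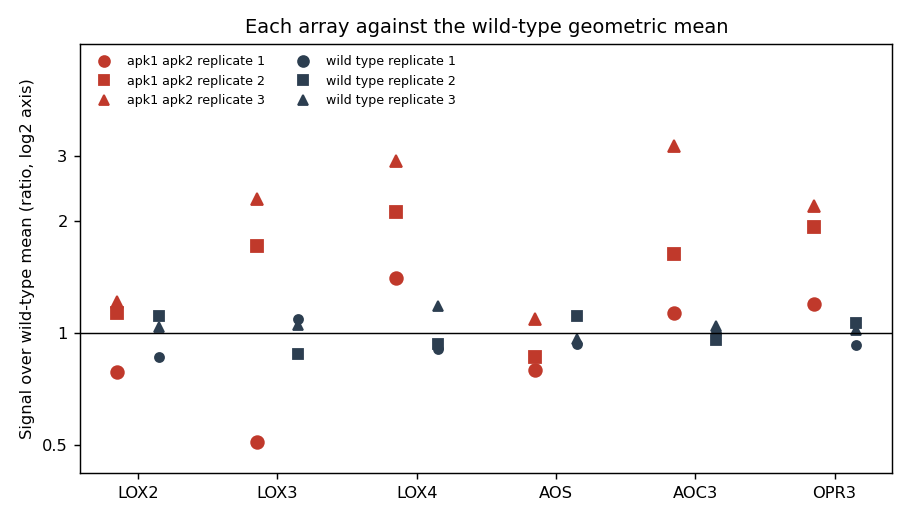
Signal of each array divided by the geometric mean of the 3 wild-type arrays, on a log2 axis, for the double mutant (left of each name, red) and the wild type (right, blue), with 1 symbol per replicate. Mutant replicate 1 (circle) is the lowest and mutant replicate 3 (triangle) the highest mutant array for every gene, from 0.510 to 2.30 for LOX3.

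**Figure D4:**
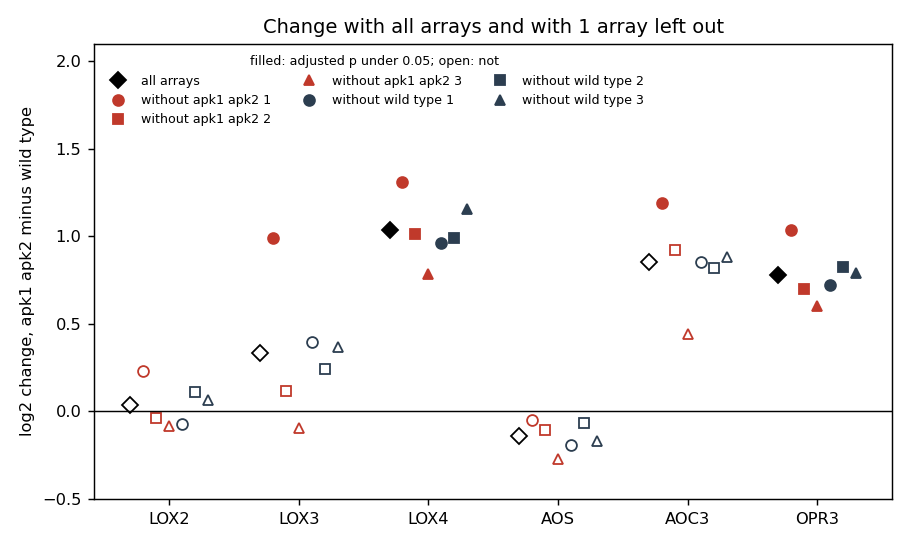
Fitted log2 change, double mutant minus wild type, with all arrays (diamond) and with 1 array left out, for each of the 6 genes; filled symbols passed an adjusted p of 0.05. LOX4 and OPR3 are filled in every setting shown, LOX3 and AOC3 only without mutant replicate 1, and LOX2 and AOS in none.

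Around these 6 genes, 52 others of jasmonate synthesis, related oxylipin branches, turnover, signalling and response were looked up by locus. The probe table named 14 of them, and 12 had enough signal to be tested, so the result speaks for those 12 alone. Of the 12, 2 rose, 0 fell and 10 were not called, where 5.79% of all tested probe sets were called higher and 5.55% lower. The median log2 change of the 12 was 0.06.

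Among 18 other genes of synthesis, 3 were tested and 1 rose. OPCL1, the ligase that activates the OPR3 product with coenzyme A for beta-oxidation, had signals of 334, 379 and 501 in the mutant, against 288, 290 and 271 in the wild type. All mutant arrays were above all wild-type arrays, and the fold was 1.41 (95% interval 1.17 to 1.70, limma, adjusted p = 0.0221). The call of OPCL1 ended without wild-type replicate 1 (adjusted p = 0.0569), 2 (0.0534) or 3 (0.0884) and without mutant replicate 3 (0.0706, with a log2 change of 0.33 against 0.50 with all arrays). AIM1, a multifunctional protein of peroxisomal beta-oxidation, averaged 426 ± 27.6 in the mutant and 415 ± 36.8 in the wild type (SD, n = 3 each, limma, adjusted p = 0.858). JASSY, which exports OPDA from the plastid, averaged 105 ± 3.47 in the mutant and 98.9 ± 9.33 in the wild type (SD, n = 3 each, limma, adjusted p = 0.718). The lipase gene DGL was under its array's 40th percentile of signal on all 6 arrays. None of the 6 genes of related oxylipin branches, such as LOX1 and HPL1, was named in the probe table.

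Of 12 genes of jasmonate turnover and modification, 4 were tested and 0 passed limma's threshold. ST2A, the hydroxyjasmonate sulfotransferase, was not among those named. The jasmonate hydroxylase JOX3 had signals of 25.6, 28.5 and 42.4 in the mutant, against 23.7, 15.4 and 16.8 in the wild type, a fitted fold of 1.71 (95% interval 1.14 to 2.57, limma, adjusted p = 0.0899). Its arrays did not overlap, but only 1 of 3 wild-type arrays was above the 40th percentile. JOX2, another jasmonate hydroxylase, had 97.6, 176 and 252 in the mutant, against 116, 137 and 156 in the wild type. The mutant arrays of JOX2 enclosed the wild-type range, as those of LOX3 did. Its log2 change was 0.27 with all arrays (limma, adjusted p = 0.578), 0.64 without mutant replicate 1 (limma, adjusted p = 0.0229) and -0.05 without mutant replicate 3 (limma, adjusted p = 0.941). JOX4 averaged 59.4 ± 11.1 in the mutant and 65.7 ± 11.7 in the wild type (SD, n = 3 each, limma, adjusted p = 0.673). JMT, the jasmonate methyltransferase, averaged 37.7 ± 12.0 in the mutant and 41.1 ± 2.81 in the wild type (SD, n = 3 each, limma, adjusted p = 0.707). JOX1 was under the 40th percentile on all 6 arrays.

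Of 8 signalling genes, 3 were tested and 0 passed limma's threshold. ORA47, an AP2/ERF factor that activates jasmonate biosynthesis genes, had signals of 29.3, 56.2 and 30.3 in the mutant, against 50.7, 46.5 and 33.4 in the wild type (limma, adjusted p = 0.670). Its highest mutant array was replicate 2, unlike that of the 6 biosynthesis genes. The bHLH factors MYC3 and MYC4 had fitted folds of 1.02 (95% interval 0.850 to 1.23) and 0.922 (95% interval 0.720 to 1.18). Of 8 response genes, 2 were tested. PDF1.2, a defensin of the jasmonate and ethylene response, rose with a log2 change of 2.93 (limma, adjusted p = 1.34e-05) and was 3.36 without mutant replicate 1. The thionin gene THI2.1 had 23.9, 24.2 and 33.7 in the mutant, against 27.3, 12.0 and 14.8 in the wild type (limma, adjusted p = 0.227). The arrangement with mutant replicate 1 lowest and mutant replicate 3 highest also held for 6 of these 12 genes.

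For the 2 called genes, the named probe sets outside the jasmonate lists with the most similar profile over the 6 arrays were taken from 7452 candidates, by the root mean square difference of mean-centred log2 signals. For OPR3 these were AT5G18470 at 0.0632, AT5G38710 at 0.108 and AT3G51450 at 0.119. AT5G18470 had signals of 124, 190 and 220 in the mutant, against 92.5, 95.5 and 99.96 in the wild type. For LOX4 they were AT3G27400 at 0.107, the glutamate receptor-like gene GLR1.4 at 0.135 and AT1G74360 at 0.138. AT3G27400 had signals of 43.6, 65.8 and 75.2 in the mutant, against 24.5, 25.6 and 36.3 in the wild type. All 6 probe sets share with OPR3 and LOX4 the order of the mutant arrays and the genotype difference that the measure selects for.

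The labelled tissue was checked with markers. RCA, the Rubisco activase of leaves, had signals of 5464 to 6874 in the mutant and 5595 to 7268 in the wild type, and overlapped between genotypes. SBPASE, a Calvin cycle enzyme and the other leaf marker with a named probe set, fell to 2621, 2421 and 2193 in the mutant, against 3213, 2903 and 2952 in the wild type (fold 0.797, limma, adjusted p = 0.0245), and its part in the results above was not tested. The root hair expansins EXPA7 and EXPA18 were under the 40th percentile on all 6 arrays. The markers listed for flowers and vascular tissue were not named in the probe table, so whether they moved with LOX3 or LOX4 was not tested.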

How the data were processed

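The values are the deposited signal intensities of 6 ATH1 arrays, 1 per probe set and array, made with MAS5 and GCOS per the submitters' processing notes, with no versions given. The authors had scaled the arrays: their means, trimmed by 2% at either end, were 100.01 each. An overall change in transcript amount would thus not be seen, and dim signals are noisy on the log2 scale. Detection calls were not used here. The number of arrays, 3 per genotype, limits the precision.

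Of 22810 probe sets, 64 controls were left out, and a probe set was tested if it reached its array's 40th percentile (16.9 to 19.4) on at least 3 of 6 arrays. All 6 jasmonate probe sets reached it on all 6. Log2 values without an offset went into limma (version 3.58.1 in R 4.3.3), with genotype as the only factor, eBayes moderation and a variance trend, two-sided, adjusted over 13848 probe sets. Folds are back-transformed log2 changes, and their intervals are unadjusted. The fit was run on simulated data with equal noise in both genotypes, unlike the wider mutant ranges of the 6 genes. There it recovered 25 of 50 changes of 1.5-fold and 45 of 50 changes of 2-fold. Pairs of genes were compared with an exact permutation test.

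Alternatives were a replicate block, quantile normalization, an offset of 16, no filter, no variance trend, a robust prior, a threshold of 0.01, a 2-fold threshold for the count over all probe sets, and leaving out each array. Other genes were named through the probe table and a gene table of assembly TAIR10.1. Named were the 6, all tested genes of the jasmonate lists, and the 3 probe sets most like each called gene. The genes and lists were chosen with earlier results of these data known. No coordinates are given, since no build is named for the values.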

Additional observations from a re-analysis of the deposited data

How the results depend on the processing

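All alternatives here were planned. LOX4 and OPR3 passed in 12 of 13 alternatives each, the exception being no variance trend, where their log2 changes were 1.04 and 0.78 and 0 of the 6 genes were called. Leaving out 1 array gave log2 changes of -0.086 to 0.23 for LOX2, -0.10 to 0.99 for LOX3 and 0.44 to 1.19 for AOC3, and 2 to 4 of the 6 genes called higher. AOS passed in 0 of 13, with log2 changes of -0.27 to -0.05. The 1571 calls over all probe sets (802 higher, 769 lower) became 880 (507, 373) with no variance trend, 811 (466, 345) at an adjusted p of 0.01, 331 (250, 81) with at least 2-fold, and 1029 to 1585 (526 to 791, 444 to 794) without 1 array. Stricter limits lower counts by construction; for the other settings the cause was not tested. Of the other jasmonate genes, 1 to 3 were called higher without 1 array, and the sign turned for AIM1 (-0.017 to 0.11), JMT (-0.36 to 0.12), JOX2 (-0.045 to 0.64), MYC3 (-0.054 to 0.13) and MYC4 (-0.26 to 0.028). Pairs that did not overlap numbered 7 to 10. Same-numbered arrays correlated at 0.0824, 0.0772 and 0.110 in their deviations, not all over 0.1, so the replicate numbers were not taken as pairs, although each array correlated best with its own number. With a replicate block AOC3 passed (log2 change 0.85, adjusted p = 0.0401), and 1789 probe sets were called over all. With an offset of 16 the log2 change was 0.82 for LOX4, 0.64 for AOC3 and 0.76 for OPR3. Dim genes such as JOX3 are limited by signal near the 40th percentile.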
